A study of Mus musculus with 6 samples.

Results

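Mouse chromosome 3 carried 3774 of the 75134 open-chromatin peaks in a common peak list from skeletal muscle, and 3705 of them, out of 74078 in all, had enough reads to be compared between knockout and wild-type libraries. The peaks were taken by their chromosome name and placed by their start in fixed 1 Mb bins, to ask whether the peaks that lost accessibility lie in broad domains or at a few genes. The assay was ATAC-seq: the transposase Tn5 inserts sequencing adapters wherever chromatin is open in nuclei, here from frozen muscle. The tissue was the quadriceps femoris, the extensor muscle at the front of the thigh. The study compared 3 Prr14-KO libraries (replicates 4, 5 and 7) with 3 Prr14-WT libraries (replicates 3, 4 and 8). The labels give no age, no sex and no description of the deleted part of Prr14, and name no Cre driver. They do not say that each library came from its own animal, so the spread between libraries may be technical in part. Chromosome 3 was selected on this same contrast, by its share of peaks with lower KO counts, with earlier results known, so its calls and values below are a description and carry no test of their own.

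PRR14 is a protein of the nuclear lamina that tethers heterochromatin to the nuclear edge by binding the heterochromatin protein HP1. Lamina-bound chromatin forms long, gene-poor domains, while the enhancers of a muscle gene usually lie within or near the gene. Chromosome 3 holds both kinds of sequence: gene deserts with neuronal adhesion genes, and muscle genes such as Pdlim5, Mbnl1 and Car3.

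Promoters inside lower, higher and uncalled peaks occur among the results, and 1 of each is shown as the 250 bases before the RefSeq transcription start (GRCm38.p6). The Mlf1 promoter, at chr3:67373847-67374096 on the plus strand, lay inside a peak that was lower in KO. The Txnip promoter, at chr3:96557707-96557956 on the plus strand, lay inside a peak that was higher in KO. The Pde4dip start at chr3:97768015-97768264 on the minus strand lay inside a peak that was not called, in a gene whose inner peaks were lower. Capitals mark the CRE motif TGACGTCA, the CCAAT box (ATTGG when read on the other strand) and CACGAG, the unit of the carbohydrate response element through which MondoA and ChREBP are known to act on Txnip.
Mlf1: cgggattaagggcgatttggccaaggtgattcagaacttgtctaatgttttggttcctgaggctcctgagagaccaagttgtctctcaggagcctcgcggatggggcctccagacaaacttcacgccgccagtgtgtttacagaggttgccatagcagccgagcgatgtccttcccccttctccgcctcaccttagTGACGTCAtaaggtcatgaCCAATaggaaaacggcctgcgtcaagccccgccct
Txnip: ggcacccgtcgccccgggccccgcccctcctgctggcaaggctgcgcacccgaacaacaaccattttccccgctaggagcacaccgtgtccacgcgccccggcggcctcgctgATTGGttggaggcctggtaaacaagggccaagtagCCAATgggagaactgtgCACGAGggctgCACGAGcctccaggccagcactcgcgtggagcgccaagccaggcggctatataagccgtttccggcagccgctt
Pde4dip: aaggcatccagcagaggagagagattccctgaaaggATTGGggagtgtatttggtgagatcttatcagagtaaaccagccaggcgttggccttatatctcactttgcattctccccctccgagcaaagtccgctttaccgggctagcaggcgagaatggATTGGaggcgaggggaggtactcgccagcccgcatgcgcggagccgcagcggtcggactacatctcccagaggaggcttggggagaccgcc
Of 32851 RefSeq promoter windows of this length, searched on both strands, 1.55% held TGACGTCA, 33.8% held CCAAT and 5.37% held CACGAG. The arrangement in the Txnip window, 2 copies of CACGAG in the same direction with 5 bases between them, occurred in 1 of the 32851 windows. None of the 3 windows held an E-box (CANNTG, found in 66.2% of windows) or a match to the MEF2 motif (2.92%). A match describes these letters only and shows neither a bound site nor a cause.

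Total counts in peaks were 9346968 to 12061822 in KO libraries and 7608514 to 11575061 in WT libraries. The 1 peak annotated to Prr14, on chromosome 7, had 57.1, 65.8 and 78.0 CPM (counts scaled to a library of 1000000 autosomal reads) in KO libraries, against 67.3, 70.2 and 63.0 CPM in WT libraries, so accessibility there gives no check of the genotype labels. Promoter peaks of 6 skeletal muscle markers (Acta1, Ckm, Mylpf, Tnnt3, Pvalb and Actn3) summed to 790 to 848 CPM in KO libraries and 676 to 1019 CPM in WT libraries. The corresponding sums were 16.8 to 30.0 in KO and 18.7 to 30.9 in WT for endothelial markers, 65.9 to 83.4 in KO and 62.0 to 71.9 in WT for fibro-adipogenic markers, and 2.90 to 5.94 in KO and 4.08 to 5.23 in WT for macrophage markers. No peak was called among the 40 fibro-adipogenic, 14 macrophage or 8 adipocyte marker peaks, and 2 of 40 endothelial marker peaks were called, 1 lower and 1 higher. Of 26 skeletal muscle marker peaks 2 were lower and 2 higher, of 10 smooth muscle marker peaks 1 was higher, and of 6 hepatocyte marker peaks 2 were higher. Of 10 neuron marker peaks 1 was lower, their median log2 fold change was -0.45, and the promoter peak of Syt1, which encodes synaptotagmin 1, had 4.89 to 5.94 CPM in KO libraries, against 6.45 to 10.6 CPM in WT libraries, without overlap but not called. The part of these markers in the lower peaks was not tested. WT replicate 4 stood apart in the lower calls: it held the highest value in 84.3% of the lower peaks of chromosome 3, in 82.1% of the 2832 lower peaks of all chromosomes and in 21.3% of all tested peaks. Most counts of lower peaks below are also given without it.

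Chromosome 3 took a smaller part of the autosomal counts in the KO libraries. It held 4.21%, 4.19% and 4.27% of the counts on chromosomes 1 to 19 in KO libraries, against 4.40%, 4.48% and 4.38% in WT libraries. All 3 KO values lay below all 3 WT values, with means of 4.22% ± 0.042 in KO and 4.42% ± 0.054 in WT (SD, n = 3 each). The 2 groups were also apart in 8 of the other 18 autosomes, with KO values below WT values on 2 of them (chromosomes 14 and 18) and above on 6. Relative to WT, the mean KO share differed by -4.47% on chromosome 3. On the other autosomes this ran from -4.23% on chromosome 9, where the groups overlapped, to 3.22% on chromosome 7. Leaving out any 1 library kept the difference on chromosome 3 between -0.22 and -0.17 percentage points. In a whole muscle, less accessible chromatin per nucleus and fewer nuclei of a type cannot be told apart.

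Of the 3705 tested chromosome 3 peaks, 261 (7.04%) were called lower in KO and 94 (2.54%) were called higher, at a Benjamini-Hochberg adjusted p below 0.05 in one edgeR fit over all peaks. Over all 74078 tested peaks, 3.82% were called lower and 3.32% higher. The other 18 autosomes ranged from 2.66% lower on chromosome 11 to 5.11% on chromosome 16, and from 2.45% higher on chromosome 19 to 3.88% on chromosome 17. Chromosome 3 had the highest share of lower peaks among the 19 autosomes, with a share of higher peaks near the low end of their range. In 535 of its tested peaks (14.4%, against 10.2% of all peaks) every KO value lay below every WT value, and in 314 (8.48%, against 10.7%) every KO value lay above. KO and WT libraries did not overlap in 252 of the 261 lower peaks and in 89 of the 94 higher peaks.

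**Figure D1:**
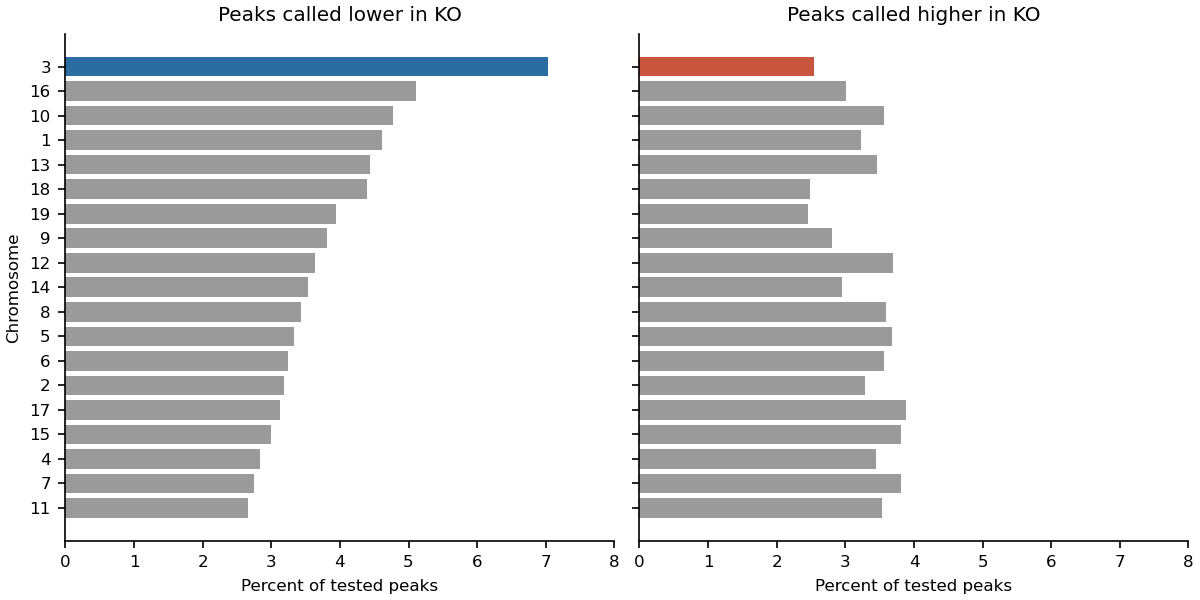
Percent of tested peaks called lower (left) and higher (right) in KO libraries for each autosome, ordered by the percent lower, with chromosome 3 coloured. Chromosome 3 has 7.04% lower peaks, against 2.66% to 5.11% on the other autosomes, and 2.54% higher peaks.

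The count of lower peaks depended on single libraries and on scaling. The share of lower peaks on chromosome 3 was the highest of the 19 autosomes in all 13 fits. These fits use the same libraries on which the chromosome was selected for this share, so the rank is no independent support. Without WT replicate 4, 149 peaks (3.99%) were called lower on chromosome 3 and 1.87% on the other 18 autosomes together; without KO replicate 5 these were 173 peaks (4.63%) and 1.94%. Higher calls numbered 53 without KO replicate 4, and 48 without KO replicate 5 or without WT replicate 3. The authors' own library factors ran from 0.977 to 1.035, while autosomal counts ran from 6649512 to 11213053. A fit with these factors therefore leaves most differences in depth in place. It shifts the median of all peaks to 0.19 on the log2 scale. In that fit 93 peaks (2.51%) were called lower and 65 higher on chromosome 3, against 0.894% lower on the other autosomes. Lower calls made up 58.9% of the chromosome 3 calls in that fit and 73.5% with the autosomal scaling. In the authors' deposited table, 74 of 3230 chromosome 3 peaks with an adjusted p (2.29%) passed 0.05 as lower and 60 (1.86%) as higher, against 0.872% lower and 2.44% higher over its 66394 peaks.

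Called peaks were a minority, and the median of the chromosome lay near that of the others. The median log2 fold change of KO over WT was -0.03 over the tested peaks of chromosome 3 and 0.03 over those of the other autosomes. Lower peaks spanned log2 fold changes of -2.76 to -0.53, with a median level of 7.26 CPM in KO and 15.2 CPM in WT. Their median width was 1097 bases, against 894.5 bases for higher peaks and 686 bases for peaks not called. The median distance of lower peaks to an annotated start was 33.2 kb, against 24.4 kb for higher peaks and 18.9 kb for peaks not called. Peaks not called had a median level of only 5.63 CPM in WT, and the part of signal level in these differences was not tested. The lower peaks of the other autosomes were similar, with a median width of 1031 bases and median levels of 7.40 CPM in KO and 14.8 CPM in WT.

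Lower peaks lay mostly away from promoters. Outside promoter classes 238 of 2864 peaks were lower (8.31%, against 4.28% on the other autosomes). Within 1 kb of a start 16 of 680 were lower and 4 were higher (2.35% and 0.588%), where 0.964% and 1.33% of the promoter peaks of all chromosomes were. Introns held 101 and intergenic sequence 105 of the lower peaks. Among 121 peaks over 3' untranslated regions 20 were lower (16.5%), against 3.56% on the other autosomes; this count was 6 of 121 (4.96%) without WT replicate 4 and 1 (0.826%) with the authors' factors. Outside promoter classes 134 of 2897 peaks (4.63%) were lower without WT replicate 4, and within 1 kb of a start 11 of 680 (1.62%).

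Along the chromosome, 27 of 152 tested 1 Mb bins were called lower as sums (17.8%, against 6.97% of all 2467 bins) and 2 were called higher (1.32%, against 4.01%). In 40 bins (26.3%, against 15.5% of all bins) every KO sum lay below every WT sum, and in 13 (8.55%, against 14.7%) every KO sum lay above. The bins called lower lay over much of the length of the chromosome, and 17 of them had no called neighbour. The others formed a stretch of 4 bins from 20 to 24 Mb, with 23 lower peaks, and 3 pairs, from 64 to 66, from 141 to 143 and from 146 to 148 Mb. Of all bins, 83 of 152 held no lower peak. Bin calls fell to 12, 10 and 17 without KO replicates 4, 5 and 7, to 2 with the authors' factors, and were 36 without WT replicate 4.

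**Figure D2:**
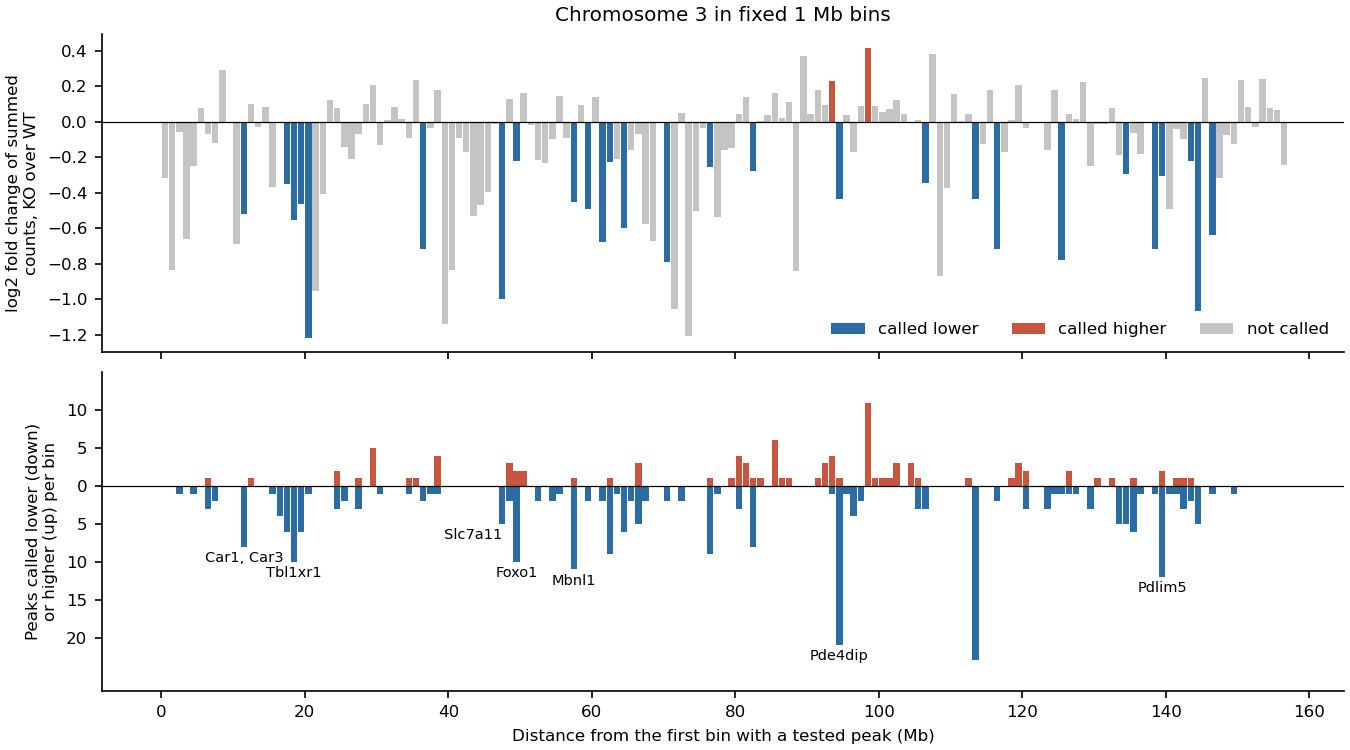
Top, log2 fold change (KO over WT) of the summed counts in each 1 Mb bin of chromosome 3, against distance from the first bin with a tested peak; bottom, number of peaks called lower (down) and higher (up) in each bin. The 27 lower bins are spread along the chromosome, and 10 bins hold 121 of the 261 lower peaks.

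A bin was termed loss-rich if it held at least 5 tested peaks and a share of lower peaks at least 2 times the autosomal share of 3.76%. Chromosome 3 had 44 loss-rich bins among 116 with enough peaks (37.9%), where the other autosomes ranged from 10.8% to 24.3%. These 44 bins held 221 of the 261 lower peaks (84.7%) among 1313 tested peaks. They were uneven: 9 held a single lower peak and 19 held 5 or more. They had a median of 4 protein-coding genes, against 7 in the other bins with enough peaks. The median log2 fold change of their peaks that were not called was -0.14, against 0.05 in the other bins, and 63.1% of these 1072 peaks had a negative fold change, against 44.3% of 2205 in the other bins. The bins were defined by lower peaks in these same libraries, in some bins of the same gene, so this difference is a description only. There were 43 loss-rich bins without WT replicate 4.

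Loss-rich bins seldom formed long stretches. There were 7 runs of 2 or more adjacent loss-rich bins, together 20 bins, where the other autosomes had 0 to 9 runs. The longest, 5 bins from 18 to 23 Mb, held 27 lower peaks among 125, annotated to Tbl1xr1, Gyg, Agtr1b, Mtfr1, Pde7a and Cyp7b1; no other autosome had a run of more than 4. The next longest ran from 136 to 140 Mb, over Ppp3ca, Ddit4l and Eif4e among other genes, with 17 lower peaks of 148, and from 141 to 144 Mb, over Pdlim5, Bmpr1b and Lmo4, with 14 of 76. Bins with fewer than 5 tested peaks could not be loss-rich, so they ended runs, and they were left out of the correlation below. Both measures cover 116 of the 152 tested bins and say little about sequence with few peaks. Over 97 pairs of adjacent bins the log2 fold changes correlated at r = -0.07, against -0.23 to 0.45 on the other autosomes. Adjacent bins share the libraries and their depth, and r is given as a description.

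Lower peaks lay near one another below about 100 kb. Each lower peak was paired with the other tested peaks around it, and the shares are of these pairs. Neighbours that are both lower count from each side, so long rows weigh more. Within 5 kb the neighbour was lower too in 44.7% of pairs (68 of 152). The share was 33.4% at 5 to 20 kb, 32.1% at 20 to 50 kb and 22.6% at 50 to 100 kb. It was 9.94% at 100 to 200 kb and 7.87% at 1 to 2 Mb, beside 7.04% for all tested peaks of the chromosome. On the other autosomes the shares were 29.4% within 5 kb, 11.1% at 50 to 100 kb and 3.48% at 1 to 2 Mb. Neighbours annotated to another gene gave a like decline on chromosome 3: 51.7% of 89 pairs at 5 to 20 kb, 37.2% of 317 at 20 to 50 kb, 23.3% of 678 at 50 to 100 kb and 5.17% of 1469 at 100 to 200 kb. Without WT replicate 4 the shares for any neighbour were 32.1% within 5 kb, 14.0% at 50 to 100 kb and 6.27% at 100 to 200 kb, beside 3.99% for all tested peaks of the chromosome. With the authors' factors they were 24.4% within 5 kb and 11.2% at 5 to 20 kb on chromosome 3, beside 2.51% for all its peaks, against 23.9% and 16.7% on the other autosomes. When each lower peak was paired with the tested peak next to it on either side, that next peak was lower in 32.2% of pairs (168 of 522). This share was 22.8% without WT replicate 4 and 22.0% without KO replicate 5. On the other autosomes it ranged from 11.7% on chromosome 15 to 36.0% on chromosome 13.

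**Figure D3:**
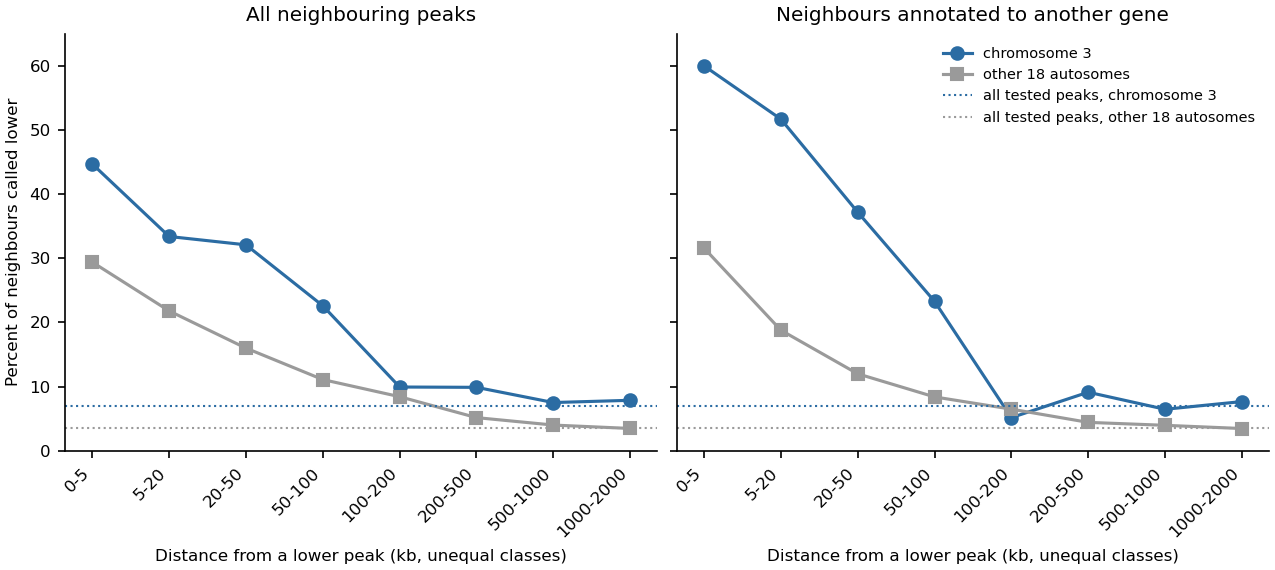
Percent of pairs, each a lower peak and another tested peak, in which the other peak is also lower, by the distance between them. Pairs are shown for all neighbours (left) and for neighbours annotated to another gene (right), on chromosome 3 and on the other 18 autosomes. Dotted lines are the shares over all tested peaks. On chromosome 3 the share declines from 44.7% within 5 kb to 9.94% at 100 to 200 kb; the leftmost point of the right panel rests on 10 pairs.

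Part of the loss lay at a few genes. The 10 genes with the most lower peaks held 99 of the 261 (37.9%), and 101 genes held at least 1. On the other autosomes the 10 leading genes held 25.8% to 56.7%, with a median of 35.2%, and 51 to 121 genes held at least 1. Chromosome 3 lay within both ranges. Among the 19 loss-rich bins with 5 or more lower peaks, 1 gene held at least 50% of them in 17 bins and all of them in 5. When the peaks of the leading gene were set aside in each of the 44 bins, 10 of the 30 bins that kept at least 5 peaks were still loss-rich, and 59 of the 709 remaining peaks were lower (8.32%). Without the 10 leading genes 4.79% of the remaining chromosome 3 peaks were lower, where the other autosomes without theirs ranged from 1.94% to 3.57%.

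Pde4dip encodes myomegalin, an anchor for phosphodiesterase and protein kinase A at the Golgi, the centrosome and the sarcomere. Within its 199 kb, 19 of 39 tested peaks were lower and 38 had a negative fold change; 12 were lower without WT replicate 4 and 3 with the authors' factors. Of the peaks annotated to Pde4dip 14 of 32 were lower, and others in the span are annotated to the predicted gene Gm17651, so reads cannot be assigned to one gene or the other. The peak with the lowest fold change annotated to Pde4dip, an intronic peak at chr3:97829671-97830890, had 10.1, 8.51 and 8.59 CPM in KO libraries, against 18.9, 26.7 and 16.3 CPM in WT libraries (-1.19 ± 0.21). The groups did not overlap. The 4 peaks within 1 kb of Pde4dip starts, including the one whose sequence is shown, had log2 fold changes of -0.31 to 0.37 and were not called. The bin from 97 to 98 Mb was lower by 0.44 on the log2 scale (-0.44 ± 0.09 SE), with 1092, 1102 and 1005 CPM in KO libraries, against 1306, 1679 and 1340 CPM in WT libraries.

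Carbonic anhydrase genes held an unbroken row of lower peaks that no other row on chromosome 3 exceeded, though rows of 9 and 17 occurred on chromosomes 11 and 13. It held 8 consecutive peaks over 83.1 kb, at chr3:14787106-14870234, from inside Car1 to inside Car3; carbonic anhydrase III is an abundant enzyme of slow muscle fibres, and carbonic anhydrase I is best known from red blood cells. Of the 8 peaks 7 were lower without WT replicate 4, and 7 with the authors' factors. The Car3 promoter peak had 14.6, 16.4 and 16.0 CPM in KO libraries, against 30.5, 31.5 and 22.1 CPM in WT libraries (-0.84 ± 0.19). In Car1 an intronic peak at chr3:14794287-14795415 had 6.17, 5.16 and 2.63 CPM in KO libraries, against 12.7, 21.3 and 9.58 CPM in WT libraries (-1.66 ± 0.25). KO and WT values did not overlap in either peak. The row ended at Car2, the widely expressed carbonic anhydrase II next to it, whose promoter peak had 7.57, 7.25 and 11.02 CPM in KO libraries, against 10.1, 7.38 and 7.55 CPM in WT libraries. A distal peak annotated to Car2 at chr3:15040999-15041839 was higher instead, with 14.1, 10.1 and 14.4 CPM in KO libraries, against 5.67, 8.65 and 6.24 CPM in WT libraries (0.89 ± 0.24).

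**Figure D4:**
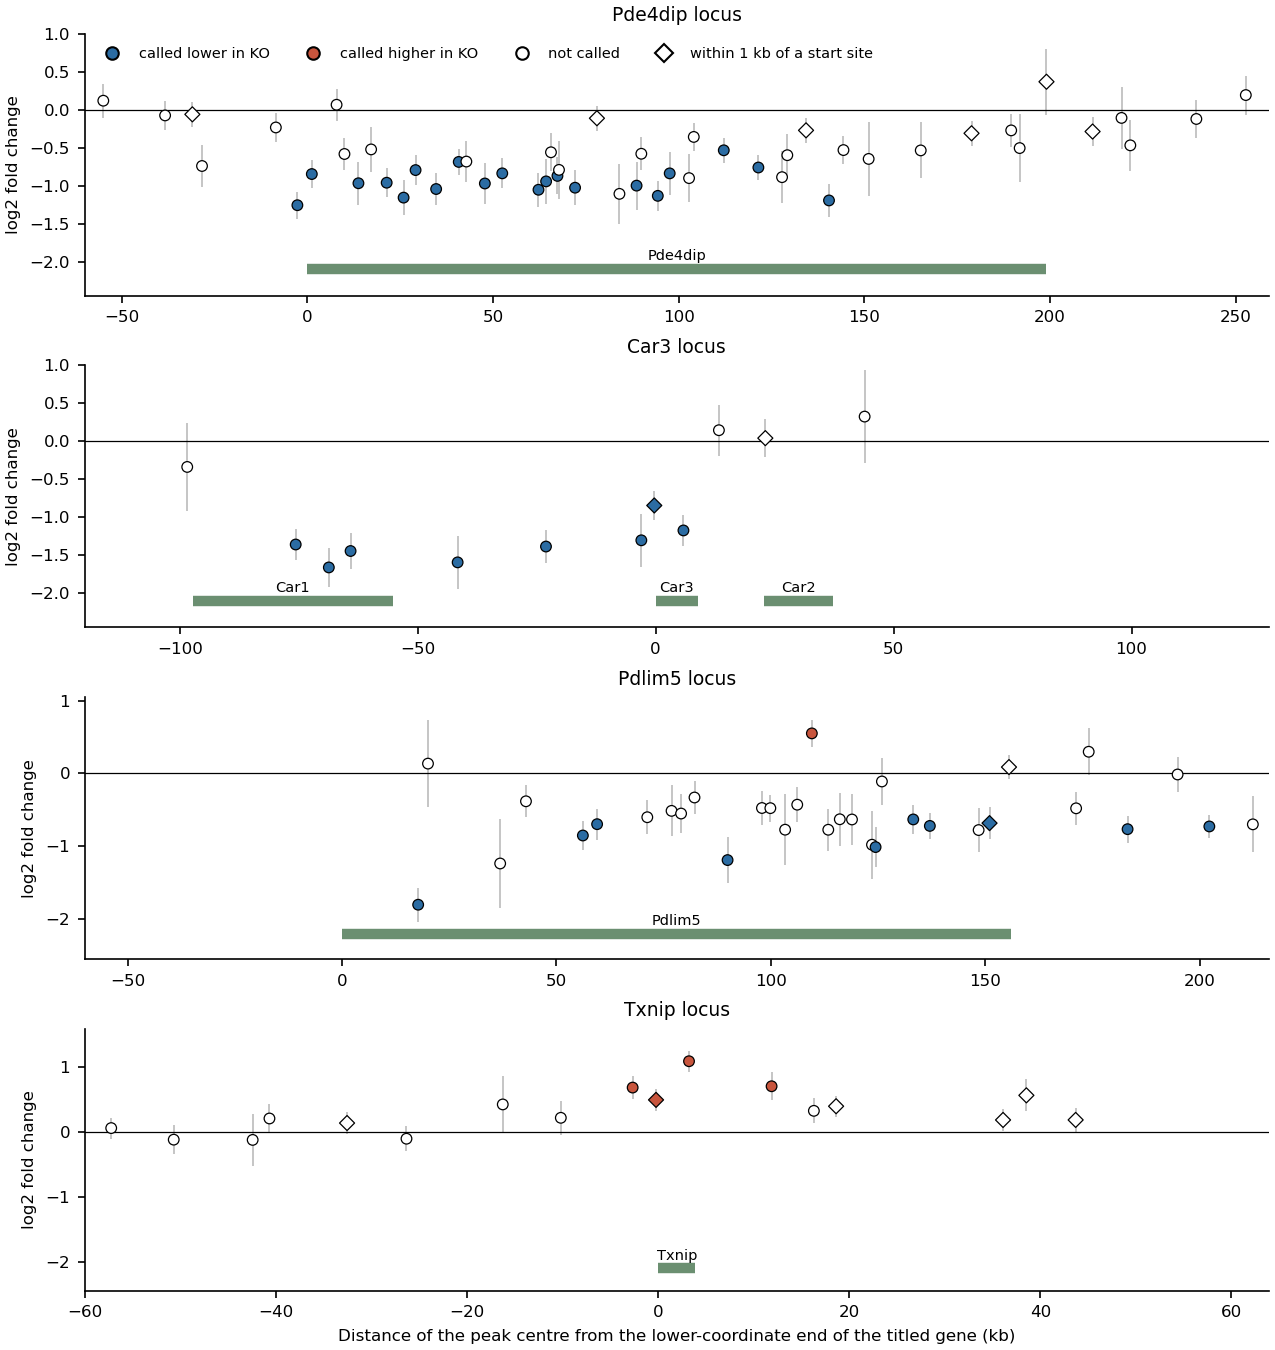
Log2 fold change (KO over WT) of each tested peak around Pde4dip, Car3, Pdlim5 and Txnip, against its distance from the lower-coordinate end of the gene; bars are standard errors, diamonds are peaks within 1 kb of a start, and green bars are RefSeq gene spans. At Pde4dip 19 of 39 peaks inside the gene are lower while the peaks at its starts are not called; the lower peaks of Car1 and Car3 stop before Car2, and the called peaks at Txnip are higher.

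Chromosome 3 held 16 rows of at least 3 consecutive lower peaks, 67 peaks in all, where the other autosomes had 2 to 12 such rows; the longest held 8 peaks here and 17 on chromosome 13. Rows numbered 5 without WT replicate 4, against 0 to 4 on the other autosomes, and with the authors' factors 2, against 0 to 3. At Mlf1, which encodes myeloid leukemia factor 1, 6 peaks over 43.4 kb reached towards Gfm1. A row of 4 peaks lay in Gyg, the gene of glycogenin, which primes glycogen synthesis; 4 of its 5 inner peaks were lower and the start peak was not called (0.08 ± 0.19). Rows of 3 peaks lay in Foxo1, Cdc14a and Npnt, and others beside Tbl1xr1, Slc7a11 and Adgrl2.

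Tbl1xr1, a subunit of the NCoR and SMRT corepressor complexes, had the most lower peaks of any gene, 17 of 67. Most of them lay in the flanking intergenic sequence assigned to the gene: inside the gene 2 of 18 were lower. A peak upstream of it, at chr3:21405226-21405891, had 1.40, 2.63 and 2.73 CPM in KO libraries, against 6.90, 11.4 and 9.43 CPM in WT libraries (-2.01 ± 0.31). KO values were all under the lowest WT value. The gene-poor bin from 21 to 22 Mb, where all 10 lower peaks were assigned to Tbl1xr1, had 262, 256 and 260 CPM in KO libraries, against 348, 446 and 346 CPM in WT libraries (-0.55 ± 0.09).

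Other genes among the 10 with the most lower peaks had them within or beside the gene. Mbnl1, a splicing factor sequestered in myotonic dystrophy, had 11 lower peaks of 47. Foxo1, a transcription factor that drives atrophy genes, had 10 of 48, and none of its 16 inner peaks had a positive fold change. In Pdlim5, a PDZ-LIM protein of the Z-disc, 10 of 32 were lower and 1 was higher. Cdc14a, a dual-specificity phosphatase, had 7 of 20 and Ppp3ca, the catalytic subunit of calcineurin, 5 of 35. Ssr3, a subunit of the translocon-associated complex, had 6 of 20, some of them inside the neighbouring potassium channel gene Kcnab1. Without WT replicate 4 the lower counts were 9 for Tbl1xr1, 6 for Mbnl1, 3 each for Foxo1, Pdlim5, Cdc14a and Ppp3ca, and 2 for Ssr3, and 7 peaks annotated to Pde4dip were called, against 14 with all libraries. With the authors' factors they were 9 for Tbl1xr1, 3 for Mbnl1 and for Ppp3ca, 2 for Pde4dip, Foxo1 and Pdlim5, and 1 for Cdc14a and Ssr3. None of the Foxo1 peaks inside the gene was called in either fit.

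Start peaks in these genes mostly escaped the call. The main Foxo1 start peak had 26.2, 24.5 and 44.2 CPM in KO libraries, against 40.7, 36.6 and 30.8 CPM in WT libraries (-0.19 ± 0.18). An intronic Foxo1 peak at chr3:52298783-52301464 had 31.1, 38.3 and 36.3 CPM in KO libraries, against 52.7, 68.0 and 38.8 CPM in WT libraries (-0.60 ± 0.17) and was lower. The start peak overlapped between groups and the inner peak did not, though KO replicate 5 and WT replicate 8 lay close together. In Pdlim5 the main start peak was not called (0.09 ± 0.16), whereas an intronic peak at chr3:142256278-142258440 had 5.71, 5.25 and 4.95 CPM in KO libraries, against 18.1, 24.7 and 12.5 CPM in WT libraries (-1.81 ± 0.24).

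Strong losses also lay in gene-poor sequence. From 50 to 51 Mb 5 of 13 tested peaks were lower, and from 147 to 148 Mb 5 of 10. Other bins named below include those of some leading genes. The peak with the largest loss among those above 10 CPM in every WT library, assigned to the cystine transporter gene Slc7a11 from 166 kb away at chr3:50609397-50610571, had 3.26, 2.45 and 3.03 CPM in KO libraries, against 13.9, 17.0 and 10.01 CPM in WT libraries (-2.24 ± 0.27). All KO values lay far below all WT values. The bin around it, from 50 to 51 Mb, had 55.1, 52.8 and 60.2 CPM in KO libraries, against 102, 132 and 101 CPM in WT libraries (-0.998 ± 0.13). The bin from 147 to 148 Mb, assigned to Adgrl2 (the adhesion receptor latrophilin 2) and Ttll7, had 55.5, 48.2 and 46.0 CPM in KO libraries, against 91.6, 128 and 92.9 CPM in WT libraries (-1.06 ± 0.14). These were the bins with the lowest fold changes among those with at least 10 tested peaks, and both stayed lower under every alternative scaling and with any 1 library left out. Less deep losses were called from 39 to 40 Mb around Fat4 and Intu (-0.72 ± 0.16), from 60 to 61 Mb around Mbnl1 (-0.45 ± 0.07), from 67 to 68 Mb around Mlf1 (-0.60 ± 0.10) and from 149 to 150 Mb upstream of Adgrl2 (-0.64 ± 0.17). Bins rich in peaks moved less as sums, with -0.22 ± 0.07 around Foxo1 (52 to 53 Mb), -0.23 ± 0.07 around Ssr3 (65 to 66 Mb), -0.25 ± 0.07 around Rapgef2 (79 to 80 Mb) and -0.30 ± 0.07 around Pdlim5 (142 to 143 Mb). The bins from 39, 52, 65, 79, 142 and 149 Mb lost the call when some single library was left out, and those from 52 and 65 Mb lost it whenever a library other than WT replicate 8 was left out.

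An intronic peak of Ntng1, a neuronal adhesion gene, had 2.80, 3.08 and 1.82 CPM in KO libraries, against 9.57, 15.4 and 10.3 CPM in WT libraries (-2.20 ± 0.29). The other peaks chosen for the largest losses were weaker, with at most 6.70 CPM in any library. They lay near Pmp2, Mbnl1, Npnt, Ppp3ca, Emcn, Vmn2r7, Tiparp and Lef1, with log2 fold changes of -2.76 to -2.03. The groups did not overlap in any of these peaks, as their choice required, and the peak near Pmp2 had no read in 1 KO library. Calls near Pmp2, Emcn, Tiparp and Lef1 were lost when single libraries were left out.

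**Figure D5:**
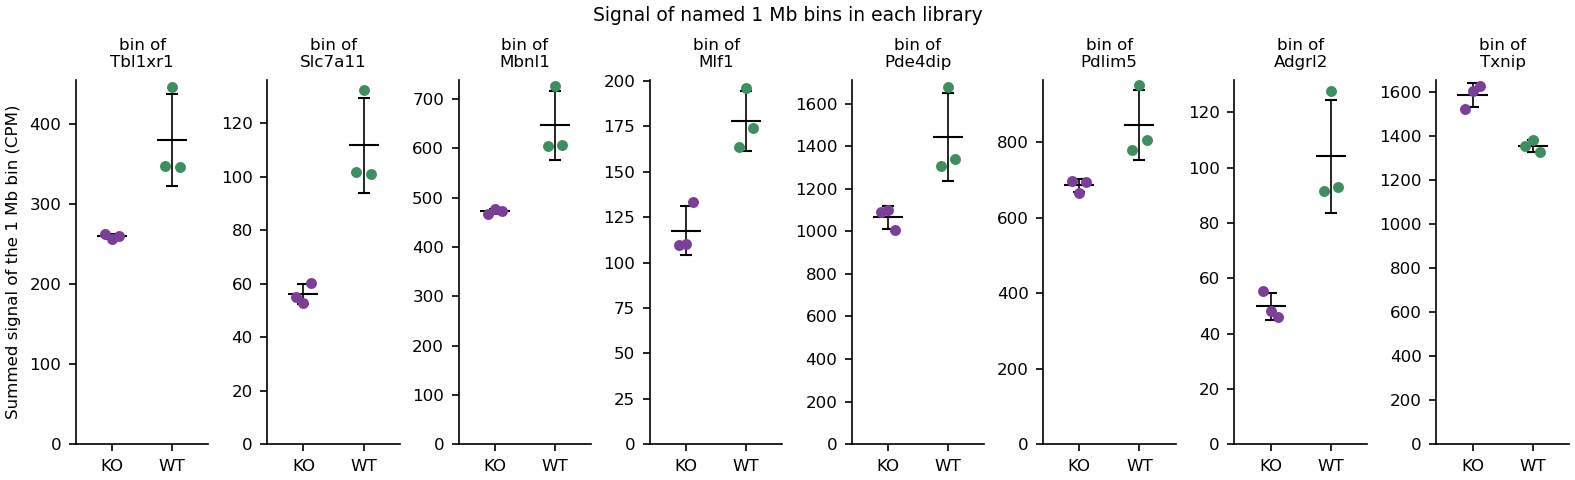
Summed signal (CPM) of 8 of the 1 Mb bins named for the most lower peaks or the most extreme fold change, in each KO and WT library; each bin is labelled with a gene in it, horizontal lines are means and bars are SD (n = 3 each), and axes start at 0. KO values lie below WT values in 7 bins, where WT replicate 4 is the highest library, and above them in the bin of Txnip.

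Gains were fewer than losses. Txnip, which restrains glucose uptake and is induced by glucose, lay in the one of the 2 higher bins that had the smaller fold change, from 96 to 97 Mb, with 1525, 1605 and 1628 CPM in KO libraries, against 1352, 1383 and 1328 CPM in WT libraries (0.23 ± 0.07). A row of 4 consecutive higher peaks over 15.3 kb ran from Txnip to the predicted gene Gm16253. The Txnip promoter peak, whose sequence is shown, had 71.4, 78.6 and 91.7 CPM in KO libraries, against 68.3, 51.2 and 52.7 CPM in WT libraries (0.49 ± 0.17). A larger gain lay over the gene at chr3:96559681-96562708, with 180, 187 and 176 CPM in KO libraries, against 97.4, 67.5 and 91.6 CPM in WT libraries (1.08 ± 0.16). KO values lay above WT values in both peaks, by a small margin at the promoter. The promoter call was lost when any library other than KO replicate 4 was left out, the bin call when any KO library or WT replicate 3 was, and both with TMM factors from all peaks, with median-ratio factors and with the authors' factors.

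Higher peaks of Mef2d, a paralogue of MEF2C and itself a muscle transcription factor, numbered 3 of 12. The intronic one at chr3:88165902-88166720 had 28.2, 28.4 and 25.6 CPM in KO libraries, against 14.02, 23.5 and 12.8 CPM in WT libraries (0.70 ± 0.19). The groups did not overlap, but with single libraries left out between 0 and 3 Mef2d peaks were called. Maml3, a Notch coactivator, and Tmem131l each had 4 higher peaks, and Jade1, a subunit of a histone acetyltransferase complex, had 3. With 1 library left out these counts were 2 to 5 for Maml3, 1 to 5 for Tmem131l and 0 to 3 for Jade1. The strongest single gain above 20 CPM in KO lay over the 3' untranslated region of Kyat3, a kynurenine aminotransferase, at chr3:142725658-142726737, with 28.7, 28.2 and 22.9 CPM in KO libraries, against 5.23, 7.29 and 8.42 CPM in WT libraries (1.94 ± 0.22). The KO values were more than double the WT values in every pairing of libraries.

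Other peaks chosen for the largest gains lay near Samd13, Stoml3, Zfp704, Maml3, Synpo2 and Nceh1, with log2 fold changes of 1.34 to 2.24. The call near Stoml3 was lost without KO replicate 4, KO replicate 5 or WT replicate 4. Synpo2, a Z-disc protein also called myopodin, had an intronic peak with 22.6, 17.5 and 18.4 CPM in KO libraries, against 4.01, 9.43 and 9.14 CPM in WT libraries (1.37 ± 0.23). Its KO values were all above its WT values, although 3 other Synpo2 peaks were lower.

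At gene starts calls were few, though the share of lower promoter peaks was above that over all genes. Taking the annotated peak nearest the start within 3 kb, 11 of 624 chromosome 3 genes had a lower promoter peak (1.76%) and 2 a higher one (0.321%), against 0.676% and 1.18% over all 12874 genes. The higher ones were Txnip and Bcar3. Pkia, an inhibitor of protein kinase A, had the largest loss among promoters within 1 kb, with 7.92, 7.70 and 7.18 CPM in KO libraries, against 17.8, 26.3 and 20.9 CPM in WT libraries (-1.51 ± 0.22). The Mlf1 promoter peak had 34.4, 40.5 and 44.9 CPM in KO libraries, against 65.3, 89.6 and 57.5 CPM in WT libraries (-0.83 ± 0.17). KO and WT values were apart in both.

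The other lower promoter peaks belonged to Gria2, Vtcn1, Cyp7b1, Ttll7, Tnfsf10, Car3, Tbl1xr1, Rapgef2 and Mab21l1. Their log2 fold changes ran from -1.90 at Gria2, an AMPA receptor subunit read at no more than 4.56 CPM, to -0.56 at Mab21l1. Tnfsf10, the death ligand TRAIL, had 5.13, 8.70 and 8.69 CPM in KO libraries, against 15.9, 13.1 and 13.6 CPM in WT libraries (-0.91 ± 0.23). Without WT replicate 4 the calls at Tbl1xr1, Rapgef2 and Mab21l1 were lost, and those at Gria2, Cyp7b1 and Tnfsf10 were lost without some other library. The lower calls at Pkia, Vtcn1, Ttll7, Car3 and Mlf1 and the higher call at Bcar3 were kept with any 1 library left out. With the authors' factors the lower calls at Cyp7b1, Ttll7, Tnfsf10, Car3, Mlf1, Tbl1xr1, Rapgef2 and Mab21l1 were lost.

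Across functional lists of chromosome 3 genes, lower peaks concentrated in a few members of each list. The chromosome's own shares were 7.04% lower and 2.54% higher, and those of all tested peaks 3.82% and 3.32%. Among 20 genes of transcription and chromatin, 44 of 312 peaks were lower (14.1%) and 6 higher (1.92%). Of the lower ones 17, 11 and 10 belonged to Tbl1xr1, Mbnl1 and Foxo1. The list's median was -0.19, beside -0.03 for the chromosome. Among 9 measured genes of calcium handling and excitation, 22 of 139 peaks were lower (15.8%) and 13 higher (9.35%). Pde4dip, Ppp3ca and Camk2d held the lower peaks, and Casq2 and Kcnn3 had 1 higher peak each. Of the 12 measured genes of energy metabolism, few held the 18 lower peaks of 66 (27.3%), with all 4 peaks of Car3 among them. The fat oxidation genes Acadm, Hadh and Etfdh had none. Contractile and Z-disc genes had 13 lower and 3 higher peaks of 125 (10.4% and 2.4%), all of the lower ones at Pdlim5 and Synpo2. There was no call at the tropomyosin gene Tpm3. Without WT replicate 4 the lower counts were 20 of 313 peaks for transcription and chromatin (6.39%) and 12 of 139 for calcium and excitation (8.63%). They were 13 of 66 for energy metabolism (19.7%) and 5 of 125 for contractile and Z-disc genes (4.0%), beside 3.99% for the chromosome.

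Genes of the deserts and of neurons, 14 in all, had 3 lower and 2 higher peaks of 62 (4.84% and 3.23%), the lower ones at Gria2 and Ntng1. The shares were 7.04% and 2.54% on chromosome 3, and 3.82% and 3.32% over all tested peaks. The list's median log2 fold change was -0.15. Without WT replicate 4, 4 of its 65 peaks were lower (6.15%), beside 3.99% for the chromosome. With the authors' factors 3 of 62 were lower (4.84%), beside 2.51%. Genes of signalling and proteolysis had 9 lower and 3 higher peaks of 101 (8.91% and 2.97%, near the 7.04% and 2.54% of chromosome 3). Markers of other cells on chromosome 3 had 2 lower peaks of 25 for endothelial cells (8.0%, Emcn and Gja5). For fibro-adipogenic cells 4 of 26 were lower (15.4%, Npnt and Sfrp2), beside 7.04% for the chromosome. None of 23 was lower for immune cells, where 2 were higher (8.7%, beside 2.54%). The fibro-adipogenic count was 2 of 26 (7.69%, beside 3.99%) without WT replicate 4 and 3 of 26 (11.5%, beside 2.51%) with the authors' factors. Promoter sums of these lists overlapped between the groups: 13.1 to 20.1 CPM in KO and 12.9 to 19.9 CPM in WT for endothelial genes, and 42.8 to 44.8 CPM in KO and 38.6 to 47.7 CPM in WT for fibro-adipogenic genes. The part of cell composition in the lower peaks was not tested.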

How the data were processed

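Tools listed in the submitters' processing notes, without roles, are DESeq2 1.6.3, bedtools, deepTools, MACS2, BWA and Trimmomatic, and the build is GRCm38; how reads were shifted, deduplicated and counted is not stated in those notes. The authors deposited 1 common peak list with whole-number counts per peak and library, a normalized signal, which is each count over a factor of its library, their log2 fold change, their p-values raw and adjusted, and a score per peak. Gene assignments and distances are those of the deposited table; gene spans and promoter sequences come from RefSeq GRCm38.p6.

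The deposited counts of all peaks were tested with the two-sided quasi-likelihood test of edgeR 4.0.16, run under R 4.3.3 (glmQLFit, then glmQLFTest, after filterByExpr with minimum count 10 and minimum total 15). Library sizes and TMM factors came from peaks of chromosomes 1 to 19, and CPM uses these sizes. The common biological coefficient of variation was 0.201 for peaks and 0.0963 for bins. A peak or bin was called at a Benjamini-Hochberg adjusted p below 0.05 over all tested peaks or bins. SE is the size of the log2 fold change divided by the square root of F. Counts summed over the peaks starting in each 1 Mb bin were fitted the same way over all 2467 bins, with library sizes from the peaks. The procedure was run on simulated counts with known changes, drawn independently for each peak. They hold no library that stands apart as WT replicate 4 does, so they are no check of the calls here. Alternatives were other scalings, DESeq2 1.42.0, no filter, bins of 0.5 and 2 Mb or shifted by 0.5 Mb, and leaving out each library.

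Named were the 10 lower and 8 higher peaks with the largest fold changes whose groups do not overlap, the 8 bins with the most lower peaks, the 5 bins with the lowest and the 5 with the highest fold change among those with at least 10 tested peaks, the 10 genes with the most lower and the 5 with the most higher peaks, called promoter peaks and listed genes; other peaks and loci in the text were chosen after their values were seen. The members and lists were chosen with earlier results of these data known. Results for some genes are not reported here.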

Additional observations from a re-analysis of the deposited data

How the results depend on the processing

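Each of the 355 peaks and 29 bins called on chromosome 3 kept its direction under the 12 other scalings, tool, filter and left-out libraries. Chromosome 3 had the highest share of lower peaks of the 19 autosomes in each. The calls and the choice of the chromosome come from these same libraries, so neither result is independent support. With the authors' library factors, 93 peaks were lower, and 2 bins were lower and 0 higher. The median log2 fold change was then 0.14 (0.19 on the other autosomes), and 19.4% of next peaks were lower. These factors leave most differences in depth between libraries in place, and the part of depth in the lost calls was not tested. Higher bins numbered 1 with TMM factors from all peaks and 1 with median-ratio factors. Bins of 0.5 Mb gave 5 higher bins and 12 runs, bins of 2 Mb gave 13 lower and 1 higher bin and 25 loss-rich bins, and shifted bins gave 4 higher; these have other numbers of bins by construction. DESeq2 called 227 peaks lower and 74 higher, and 28 bins lower and 2 higher.

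With 1 library left out at a time, lower peaks numbered 149 to 267, higher peaks 48 to 83, lower bins 10 to 36, higher bins 1 to 6, loss-rich bins 41 to 45 and runs 6 to 11; the 11 runs came without WT replicate 4. The median log2 fold change was -0.081 to 0.0064, the share of lower peaks held by the 10 leading genes 35.6% to 38.8%, the share of next peaks that were lower 22.0% to 32.6%, and the difference in the share of autosomal counts -0.22 to -0.17 percentage points. In each of these fits the percent of lower peaks was higher on chromosome 3 than on the other autosomes together. No paired analysis was possible because the KO and WT replicate numbers share only the number 4. With 3 libraries a group, gains and losses of small size are missed at this depth, so an uncalled peak is not shown to be unchanged.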
